A study of Mus musculus with 7 samples.

Results

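Transcripts of 10 genes for iron uptake, storage, release and haem breakdown were followed in libraries of mouse granulocytes with and without Alox15. Alox15 encodes arachidonate 15-lipoxygenase. The libraries also held transcripts of T cells and of dividing cells, as given below, so levels cannot be assigned to granulocytes alone. The genes were chosen by name, as rows of the count table whose Ensembl identifier maps to Tfrc, Fth1, Ftl1, Ncoa4, Slc40a1, Hmox1, Slc11a1, Slc11a2, Steap3 or Steap4, and all 10 were found among 51789 rows. RNA came from 3 Alox15 knockout libraries and 4 Alox15 wild-type libraries, called knockout 1 to 3 and wild type 1 to 4 here, and all 7 were labelled untreated. The title of the series concerns ferroptosis of tumour-associated neutrophils, but the sources used here give no tissue of origin, sorting, animal age or deleted part of Alox15.

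Iron enters most cells bound to transferrin, is freed in endosomes, and is then used, stored inside ferritin or exported. Free ferrous iron drives lipid peroxidation, so the balance of these steps bears on ferroptosis, a death by peroxidised membrane lipids. Phagocytes add their own parts: they take up iron from ingested cells by breaking down haem, and neutrophils release proteins that hold iron back from microbes.

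Many mRNAs of this pathway carry an iron-responsive element, a hairpin that the iron regulatory proteins bind when iron is scarce. In a 5′ UTR the bound hairpin blocks translation, and in the 3′ UTR of Tfrc it protects the mRNA from decay. The hairpins are shown because their place in the mRNA differs between Tfrc and the storage and export genes. GENCODE M21 transcripts, on the GRCm38 build, were searched on the transcript strand for CNNNNNCAGTGN followed by 5 bases that pair with the 5 bases before the loop, G-U pairs allowed. Capitals mark the 6 loop bases, and DNA letters are used. Tfrc held 4 such elements in its 3′ UTR, and Fth1, Ftl1 and Slc40a1 held 1 each in their 5′ UTR.
Tfrc, chr16:32631225-32631241, plus strand, 3′ UTR: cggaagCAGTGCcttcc
Tfrc, chr16:32631604-32631620, plus strand, 3′ UTR: cgggagCAGTGTcttcc
Tfrc, chr16:32631669-32631685, plus strand, 3′ UTR: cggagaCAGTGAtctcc
Tfrc, chr16:32631716-32631732, plus strand, 3′ UTR: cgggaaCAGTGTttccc
Fth1, chr19:9982738-9982754, plus strand, 5′ UTR: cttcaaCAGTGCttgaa
Ftl1, chr7:45459785-45459801, minus strand, 5′ UTR: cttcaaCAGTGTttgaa
Slc40a1, chr1:45925471-45925487, minus strand, 5′ UTR: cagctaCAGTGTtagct
Of 21901 protein-coding genes searched, 31 (0.142%) held these letters in a 5′ UTR and 129 (0.589%) in a 3′ UTR. On the opposite strand, 242 genes (1.1%) matched somewhere in a transcript, against 294 (1.34%) on the transcript strand. The 6 other iron and haem genes had no match of this strict form in a UTR, but the search would miss elements with an imperfect stem. Of the further iron genes described at the end, only Alas2, the haem synthesis enzyme of red cell precursors, had one, in its 5′ UTR.

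The libraries held 3228292 to 5657192 counts each. Levels below are CPM on the TMM scale, which count 3′ tags and are not divided by length. Neutrophil marker transcripts were present throughout, but the summed CPM of 14 such markers ran from 2388 to 27040 in knockout and from 3128 to 33870 in wild type. It was lowest in knockout 3 and wild type 2, and those libraries had the highest sums of 13 T cell markers, 1624 CPM in knockout 3 and 1191 CPM in wild type 2. The 8 eosinophil markers summed to 3.51 to 25.7 CPM in knockout and 3.13 to 33.8 CPM in wild type, led by Siglecf and Ear2, with Epx at 0 counts in all 7 libraries. The 8 basophil and mast cell markers summed to 7.01 to 21.0 CPM in knockout and 14.3 to 25.1 CPM in wild type, led by Cpa3 and Kit, with Mcpt8, Fcer1a, Ms4a2, Gata2 and Prss34 at 0 counts in all 7 libraries. Alox15 itself had 1 count in knockout 1 and 0 in every other library, so it does not check the labels. Knockouts 2 and 3 had another description stem than the other 5 libraries and had Xist at 382 and 102 CPM, against 0.896 to 6.11 CPM in the rest. For these libraries, the stem, the sex-linked transcripts and the genotype cannot be told apart. The labels do not tie each library to its own animal, and the p-values rest on the spread between libraries, some of which may be technical.

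No iron or haem gene differed between knockout and wild type beyond the spread between libraries. All 10 passed the filter on low counts, and edgeR's quasi-likelihood test called 0 of 10, beside 0% of the 12506 genes tested. None of the 10 had an edgeR unadjusted p under 0.05, beside 1.23% of all genes tested, and DESeq2 and limma-voom also called 0 of 10. The range of knockout values overlapped that of wild type for all 10, where 3.13% of all genes tested had groups that did not overlap, 1.57% with knockout higher and 1.57% with knockout lower. By sign, 2 genes were higher and 8 lower in knockout, with a median log2 fold change of -0.154, beside 0.012 over all genes tested. That median was -0.6 without knockout 1, 0.1 without knockout 3 and 0.06 without wild type 1. It was 0.56 with the description stem as a covariate, which in effect sets knockout 1 alone against wild type. The edgeR adjusted p was 0.99995 for each gene.

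**Figure D1:**
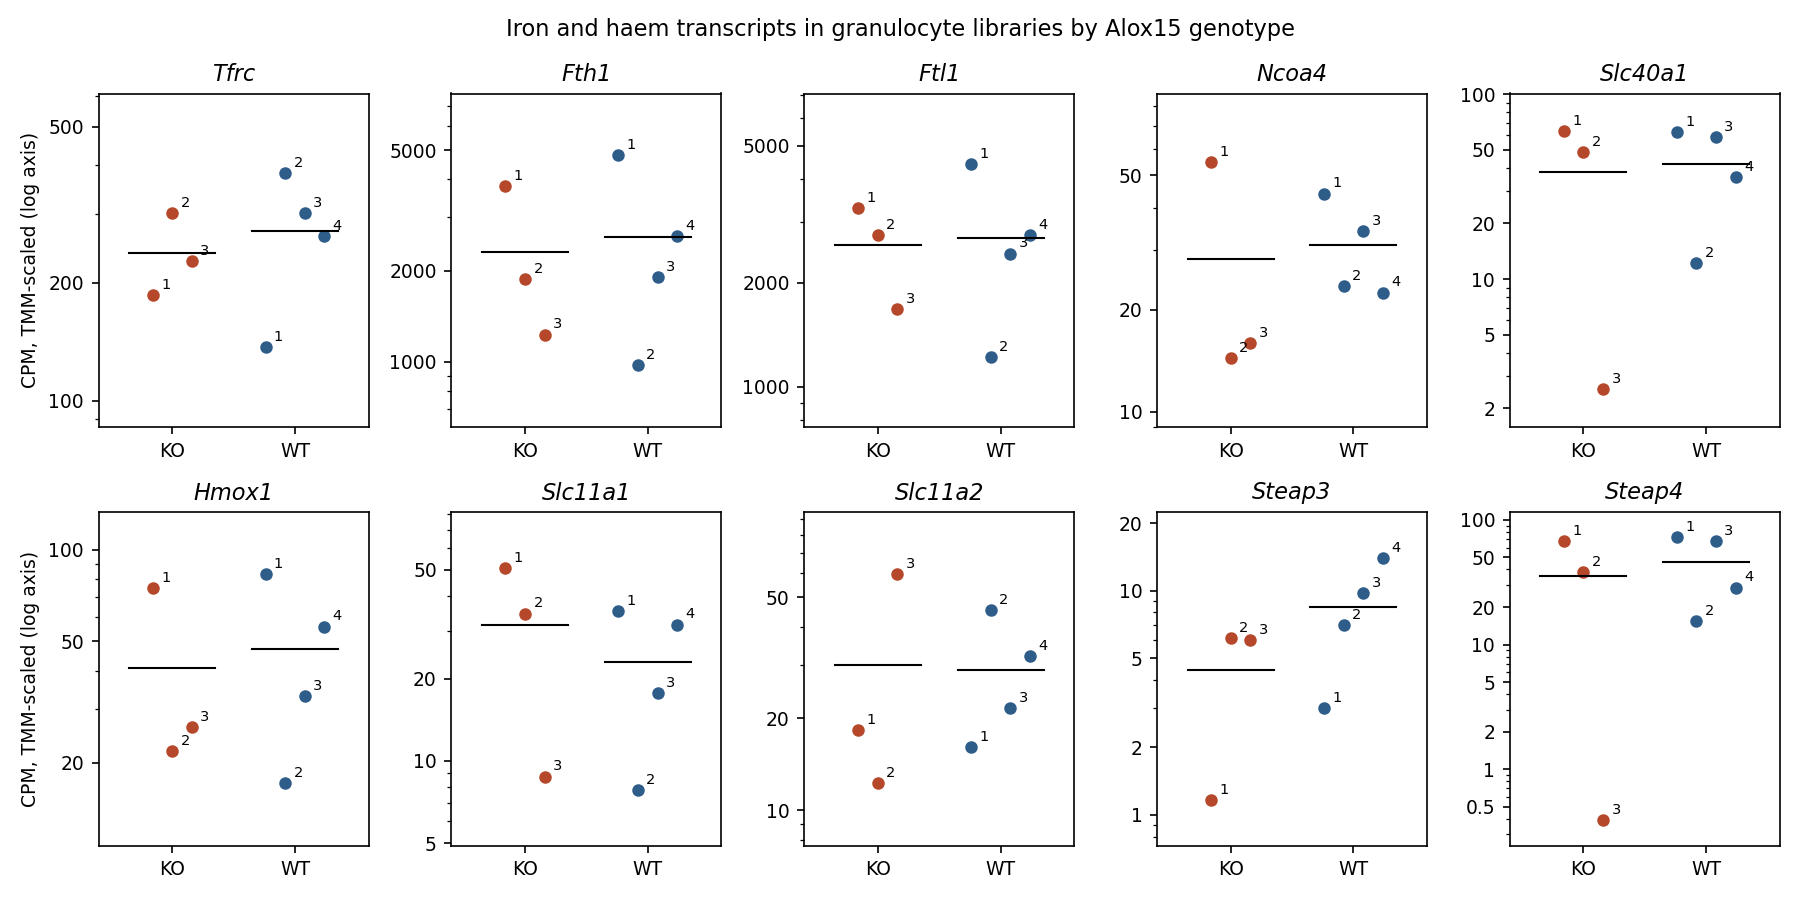
CPM (log axis) of each of the 10 genes in the 3 knockout (KO, left) and 4 wild-type (WT, right) libraries. Each point is a library with its replicate number and each bar is the group mean. The points of KO and WT overlap in every panel, and Steap4 and Slc40a1 drop in knockout 3 to 0.390 and 2.53 CPM.

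Tfrc (chromosome 16, 32608920 to 32632794, plus strand) encodes the transferrin receptor, the main route of iron into dividing cells. It stood at 186, 301 and 227 CPM in knockouts 1 to 3 and at 137, 380.4, 301 and 263 CPM in wild types 1 to 4. Wild type 1 was the lowest and wild type 2 the highest, and all knockouts lay between them. The log2 fold change was -0.19 ± 0.37 (SE), the smallest error among the 10 genes, with a 95% interval from 0.494-fold to 1.56-fold. Tfrc varied least of the 10 genes, by 2.78-fold over the 7 libraries.

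Slc11a2 (chromosome 15, 100387898 to 100425072, minus strand) encodes DMT1, which carries ferrous iron out of endosomes. The gene-level counts do not divide isoforms. It stood at 18.3, 12.2 and 59.4 CPM in knockouts 1 to 3 and 16.1, 45.4, 21.6 and 32.0 CPM in wild types 1 to 4. The highest libraries were knockout 3 and wild type 2, so knockout held both the highest and the lowest value. Its log2 fold change was 0.06 ± 0.57 (SE), and without knockout 3 it was -0.99 with an edgeR unadjusted p of 0.0852.

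Its paralog Slc11a1 (chromosome 1, 74375195 to 74386062, plus strand) encodes NRAMP1, which pumps metal out of phagosomes. It ran the other way.
Slc11a1 stood at 50.9, 34.6 and 8.76 CPM in knockouts 1 to 3 and at 35.3, 7.83, 17.7 and 31.5 CPM in wild types 1 to 4. The lowest libraries were knockout 3 and wild type 2, and the highest was knockout 1. It had the largest positive log2 fold change of the 10 genes, 0.45 ± 0.64 (SE), with a 95% interval from 0.502-fold to 3.73-fold, and the value was -0.09 without knockout 1. Knockout 1 also held the most macrophage and monocyte marker RNA, a sum of 1749 CPM over 14 markers, against 923 and 338.5 CPM in the other knockouts and 253 to 727 CPM in wild type. All 14 of these markers were higher in knockout by sign and 0 passed; their part in the level of Slc11a1 was not tested.

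Steap3 and Steap4 encode reductases that turn ferric into ferrous iron, Steap3 in the endosome of the transferrin cycle and Steap4 in leukocytes and fat under inflammation. Steap3 (chromosome 1, 120190757 to 120272705, minus strand) was the scarcest of the 10 in counts, with 6, 20 and 31 counts in knockouts 1 to 3 and 10, 45, 49 and 53 counts in wild types 1 to 4. This gave 1.17, 6.13 and 6.04 CPM in knockout, against 2.99, 7.05, 9.73 and 14.0 CPM in wild type. The lowest value was that of knockout 1, followed by wild type 1, and the 3 highest were wild type. Its log2 fold change, -0.93 ± 0.76 (SE), was the largest of the 10 in size. The edgeR unadjusted p was 0.252, and the counting error of the 6 counts in knockout 1 was by itself 40.8%. The log2 fold change of Steap3 was negative in every alternative fit run. It was -2.83 when the description stem was a covariate, which in effect sets knockout 1 alone, with its 6 counts, against wild type.

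Steap4 (chromosome 5, 7960457 to 7982213, plus strand) showed the widest range of the 10 genes. It had 348, 125 and 2 counts in knockouts 1 to 3, or 67.7, 38.3 and 0.390 CPM, against 72.3, 15.5, 67.9 and 28.6 CPM in wild types 1 to 4. Knockout 3 lay far below every other library, and the exact 95% Poisson interval of its 2 counts was 0.0472 to 1.41 CPM. Knockout 1 was 174 times higher than knockout 3, with an exact 95% counting interval of 47.7 to 1440 times. The log2 fold change was -0.38 ± 1.07 (SE), and it was 0.16 without knockout 3.

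Fth1 and Ftl1 encode the heavy chain of ferritin, which oxidises iron as it enters the shell, and the light chain, which helps iron to mineralise inside it. Together they took 0.697%, 0.468% and 0.279% of all counts in knockouts 1 to 3 and 0.857%, 0.248%, 0.438% and 0.518% in wild types 1 to 4, each with a Wilson 95% interval no wider than 0.847 to 0.866%, that of wild type 1. Fth1 (chromosome 19, 9980598 to 9985098, plus strand) stood at 3809, 1873 and 1228 CPM in knockout, against 4805, 972.5, 1907 and 2606 CPM in wild type. Wild type 1 and knockout 1 were the highest, and wild type 2 and knockout 3 the lowest. Each of these levels rested on at least 6115 counts, with a counting error of at most 1.28%, far less than the 4.94-fold span over the 7 libraries. The log2 fold change of Fth1 was -0.16 ± 0.58 (SE), with a 95% interval from 0.364-fold to 2.20-fold.

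Ftl1 (chromosome 7, 45457944 to 45459884, minus strand) followed the same order at the top and the bottom. It stood at 3301, 2758 and 1680 CPM in knockouts 1 to 3, against 4429, 1222, 2431 and 2756 CPM in wild types 1 to 4. Its log2 fold change was -0.07 ± 0.47 (SE), with a 95% interval from 0.460-fold to 1.97-fold. Another 14 rows have ferritin-like symbols; 13 had 0 counts in all 7 libraries and Ftl1-ps1, a pseudogene of the light chain, had 1655 counts, or 2.07% of those of Ftl1. Reads may be shared between Ftl1 and this pseudogene, and adding its counts left the log2 fold change of Ftl1 at -0.07.

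Ncoa4 (chromosome 14, 32159865 to 32179855, plus strand) encodes the receptor that brings ferritin to the lysosome, where its iron is freed. It stood at 54.6, 14.4 and 15.97 CPM in knockouts 1 to 3, against 44.2, 23.5, 34.2 and 22.5 CPM in wild types 1 to 4. The knockouts held the highest library and the 2 lowest. The log2 fold change was -0.13 ± 0.51 (SE). Without knockout 1 it was -1.03, with an edgeR unadjusted p of 0.0429 that did not pass after adjustment over all genes.

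Slc40a1 (chromosome 1, 45908068 to 45926523, minus strand) encodes ferroportin, the exporter of iron from cells. It had 324, 158 and 13 counts in knockouts 1 to 3, or 63.0, 48.4 and 2.53 CPM, against 62.2, 12.2, 58.4 and 35.7 CPM in wild types 1 to 4. The lowest were knockout 3 and wild type 2, while knockout 1 and wild type 1 were nearly equal at the top. Knockout 1 was 24.9 times higher than knockout 3, with an exact 95% counting interval of 14.3 to 47.2 times, while the log2 fold change between genotypes was -0.15 ± 0.88 (SE). It was 0.36 without knockout 3.

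Hmox1 (chromosome 8, 75093621 to 75100589, plus strand) encodes haem oxygenase 1, the inducible enzyme that opens the haem ring and frees its iron. It stood at 74.7, 21.8 and 26.1 CPM in knockouts 1 to 3, against 83.1, 17.1, 33.0 and 55.9 CPM in wild types 1 to 4. Wild type 1 and knockout 1 were again the highest, but here knockout 2 lay with the low libraries. The log2 fold change was -0.20 ± 0.60 (SE), with a 95% interval from 0.340-fold to 2.22-fold.

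**Figure D2:**
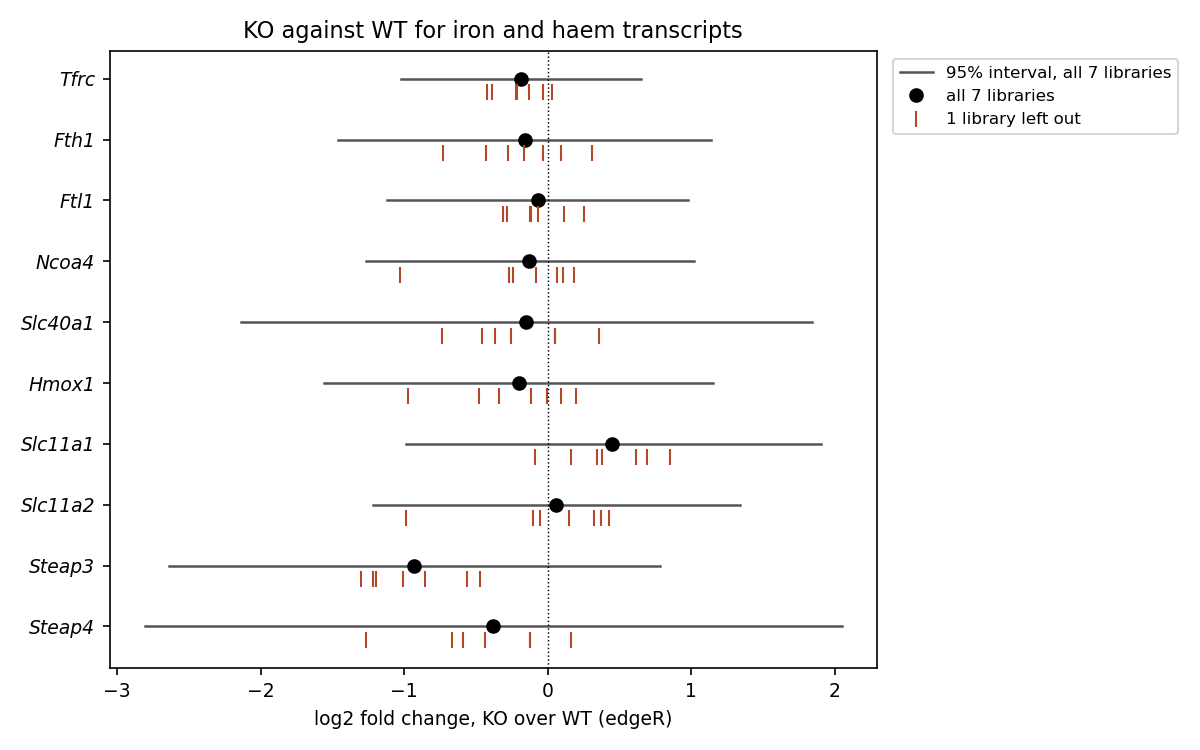
Log2 fold change of knockout (KO) over wild type (WT) from edgeR for the 10 genes. Points use all 7 libraries, lines are 95% intervals and red ticks are the 7 fits that leave out 1 library. Every interval spans 0, and the ticks lie on both sides of 0 for each gene except Steap3, whose ticks run from -1.3 to -0.47.

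Within the 5 libraries that share a description stem, knockout 1 was the only knockout and could be set against the 4 wild types without a test. Its log2 CPM exceeded the wild-type mean by 1.34 for Slc11a1, 0.88 for Hmox1, 0.86 for Ncoa4, 0.82 for Slc40a1, 0.81 for Steap4, 0.79 for Fth1 and 0.43 for Ftl1. It lay below the wild-type mean for Tfrc (-0.45), Slc11a2 (-0.54) and Steap3 (-2.29). In knockouts 2 and 3, which have the other stem, the mean was below wild type for Steap4 (-2.78), Slc40a1 (-1.58), Ncoa4 (-0.96), Hmox1 (-0.75), Fth1 (-0.53), Steap3 (-0.27), Ftl1 (-0.19) and Slc11a1 (-0.18). For Tfrc and Slc11a2 that mean differed from wild type by 0.04 and 0.02. The stem of knockouts 2 and 3 holds no wild type, so no value within it can be given. Steap3 was thus the only one of the 10 for which knockout 1 and the mean of knockouts 2 and 3 lay on the same side of wild type.

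Ratios within a library do not depend on library scaling, so paired genes of like function were compared in that way. The log2 ratio of Fth1 to Ftl1 counts was 0.21, -0.56 and -0.45 in knockouts 1 to 3, against 0.12, -0.33, -0.35 and -0.08 in wild types 1 to 4. It spanned only 1.7-fold while each chain spanned over 3-fold. The mean was -0.27 ± 0.41 in knockout (SD, n = 3) and -0.16 ± 0.22 in wild type (SD, n = 4), with an exact two-sided permutation p of 0.657 (0.8 adjusted over 3 ratios). The smallest p that the 35 ways to choose 3 of 7 libraries allow is 0.0286.

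The log2 ratio of Slc11a1 to Slc11a2 was 1.47, 1.49 and -2.75 in knockouts 1 to 3, against 1.12, -2.52, -0.29 and -0.02 in wild types 1 to 4. The ratio was lowest in knockout 3 and wild type 2, and highest in knockouts 1 and 2 and wild type 1. This ratio spanned 18.8-fold over the libraries, yet its mean was 0.07 ± 2.44 in knockout (SD, n = 3) and -0.43 ± 1.52 in wild type (SD, n = 4), with an exact two-sided permutation p of 0.686 (0.8 adjusted). The log2 ratio of Steap4 to Steap3 was 5.74, 2.61 and -3.66 in knockouts 1 to 3, against 4.53, 1.13, 2.79 and 1.02 in wild types 1 to 4. Knockout 3, with its 2 Steap4 counts, was the lowest library, and the exact two-sided permutation p between genotypes was 0.8.

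**Figure D3:**
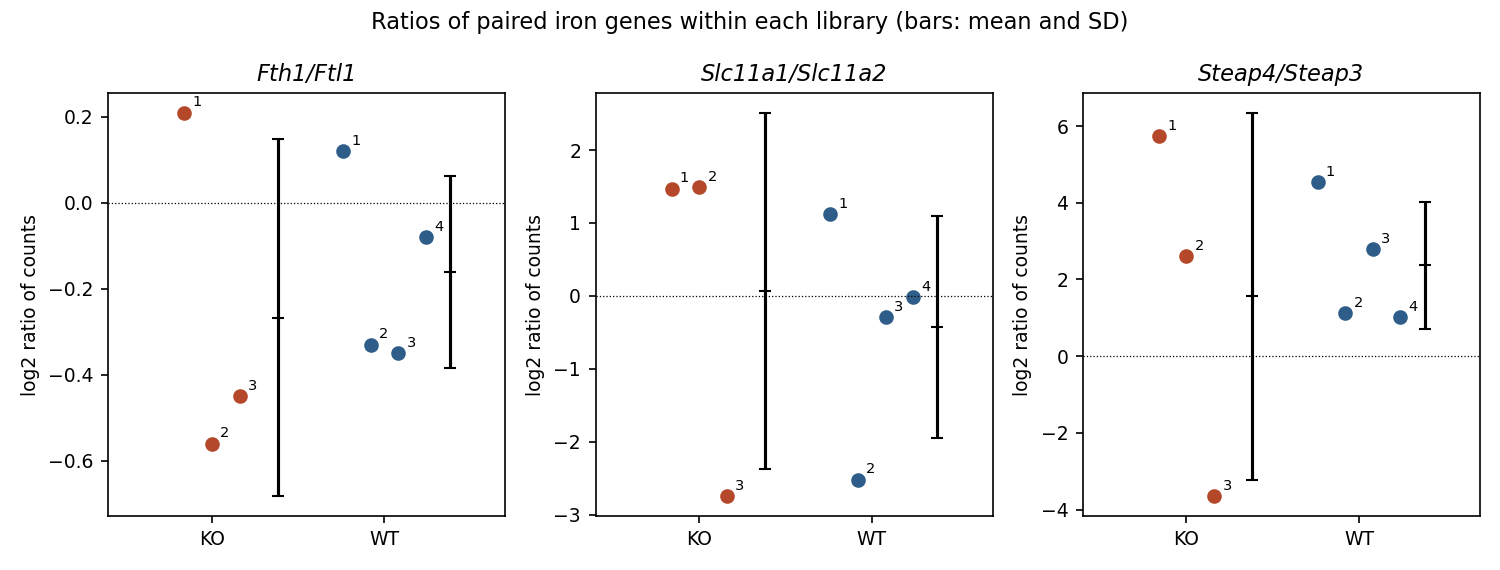
Log2 ratio of counts (offset 0.5) of Fth1 to Ftl1, Slc11a1 to Slc11a2 and Steap4 to Steap3 within each knockout (KO, left) and wild-type (WT, right) library. Points carry replicate numbers, and bars are the mean and SD. Knockout 3 and wild type 2 lie lowest for Slc11a1 to Slc11a2, at -2.75 and -2.52.

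Levels of 6 of the 10 genes went with the amount of neutrophil transcripts across libraries. A neutrophil score, the mean log2 CPM of 14 markers such as S100a8, Cxcr2, Mmp9 and Retnlg, was 9.43, 9.09 and 5.91 in knockouts 1 to 3 and 9.83, 6.47, 8.40 and 8.34 in wild types 1 to 4. Over the 7 libraries, 6 of the 10 genes had an exact permutation p under 0.05 for Pearson's r after adjustment over the 10, and 5 of those 6 passed with Spearman's rho as well. None of the 10 passed once knockout 3 and wild type 2 were left out, as given below. In bulk RNA, the share of neutrophils, the RNA of a gene per neutrophil and the RNA of that gene from other cells cannot be told apart.

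Slc11a1 gave r = 0.933 (exact permutation p = 0.00655, adjusted p = 0.0131; rho = 0.893, exact adjusted p = 0.0246). Slc40a1 gave r = 0.929 (exact permutation p = 0.00278, adjusted p = 0.00942; rho = 0.929, exact adjusted p = 0.0246). Ftl1 gave r = 0.924 (exact permutation p = 0.00377, adjusted p = 0.00942; rho = 0.929, exact adjusted p = 0.0246). For all 3 genes, a metal pump of phagosomes, the iron exporter and a ferritin chain, the highest libraries were wild type 1 and knockout 1, which also had the highest scores. Macrophage and monocyte markers moved with them too: r with the score of that list was 0.888 for Slc11a1, 0.733 for Slc40a1 and 0.641 for Ftl1, given as a description, and their part was not tested. Steap4 passed with r = 0.858 (exact permutation p = 0.00278, adjusted p = 0.00942; rho = 0.893, exact adjusted p = 0.0246). Fth1 passed for r, 0.886 with an exact adjusted p of 0.0205, but its rho of 0.821 had an exact adjusted p of 0.0569. The exact adjusted p for r of Fth1 was 0.0648 without wild type 1 and 0.0509 without wild type 4 or without knockout 1.

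Slc11a2 was the only one of the 10 to pass with a negative sign, r = -0.926 (exact permutation p = 0.00337, adjusted p = 0.00942; rho = -0.893, exact adjusted p = 0.0246). Hmox1 (r = 0.698, exact adjusted p = 0.134), Ncoa4 (0.575, exact adjusted p = 0.227), Tfrc (-0.536, exact adjusted p = 0.234) and Steap3 (-0.43, exact adjusted p = 0.332) did not pass. Such relations were common in these libraries: 14.9% of all genes tested had r above 0.8 and 4.09% had r below -0.8, where the 10 genes had 5 above and 1 below.

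Knockout 3 and wild type 2 lay apart from the other libraries in this score, so r was computed again in the 5 libraries that remained, an alternative chosen after seeing the data. It was 0.89 for Ftl1, 0.758 for Fth1, 0.661 for Slc11a1, 0.65 for Slc40a1, 0.548 for Steap4 and -0.667 for Slc11a2. In an exact permutation test over the 120 orders of 5 libraries, whose smallest possible p is 0.00833, 0 of the 10 genes passed after adjustment. Ftl1 came nearest, with an exact permutation p of 0.025 (adjusted p = 0.25), and the other exact adjusted p-values were 0.333 to 0.433. Leaving out wild type 2 alone or knockout 3 alone kept 6 genes passing for r. With only 5 libraries a call is hard to reach, so whether the relations rested on those 2 libraries cannot be told. For Tfrc and Steap3, r in the 5 libraries was larger in size than over all 7, -0.835 and -0.843, with an exact adjusted p of 0.333 each.

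**Figure D4:**
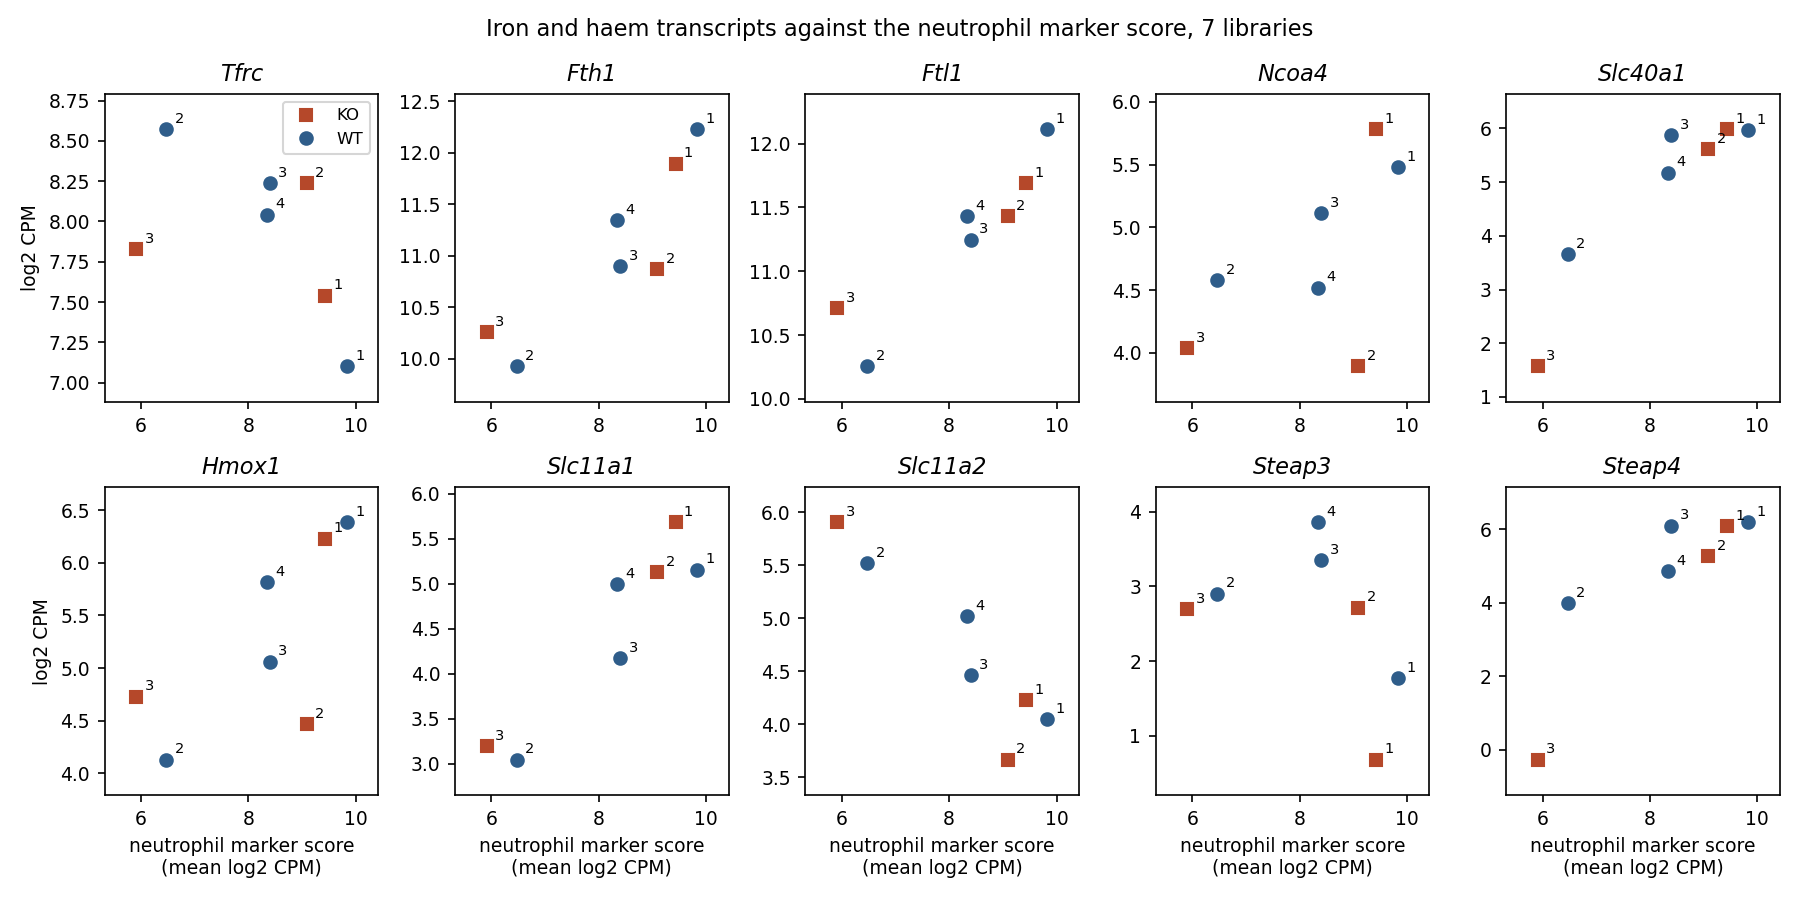
Log2 CPM of each of the 10 genes against the neutrophil marker score (mean log2 CPM of 14 markers) in knockout (KO, squares) and wild-type (WT, circles) libraries, numbered by replicate. Knockout 3 and wild type 2 sit at the left of every panel, with scores of 5.91 and 6.47. Slc11a2 falls and Slc40a1, Slc11a1, Ftl1 and Steap4 rise from left to right.

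Tfrc tended to be higher where transcripts of dividing cells were higher. Knockout 3 was an exception, with the highest sum of these transcripts but Tfrc at 227 CPM. Summed over 14 proliferation genes, CPM was 2001, 2726 and 3548 in knockouts 1 to 3 and 1636, 3367, 2801 and 3315 in wild types 1 to 4, and r of Tfrc with the mean log2 CPM of these genes was 0.887 over the 7 libraries, given as a description. Red cell precursors also carry much transferrin receptor. Globin RNA of the erythroid list was present, with a sum of 623 to 2018 CPM in knockout and 256 to 2010 CPM in wild type. Of the erythroid markers other than globins, Tal1 reached 0.919 CPM in knockout and 2.91 CPM in wild type, Slc4a1 reached 1.17 CPM in knockout and 1.19 CPM in wild type, and Klf1, Epor, Gata1 and Ermap had 0 counts in all 7 libraries. The r of Tfrc with the erythroid score was -0.238. Only 4 genes of that list passed the filter, all of them globins, so this score follows globin RNA and does not measure red cell precursors. With the T cell score, r was -0.862 for Fth1 and -0.815 for Ncoa4. The part of these cells in the levels was not tested.

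Among the 10 genes themselves, the strongest relations were positive. They were Slc40a1 with Steap4 (r = 0.978), Fth1 with Ftl1 (r = 0.962), Fth1 with Hmox1 (r = 0.943) and Ftl1 with Slc11a1 (r = 0.901). Tfrc opposed Hmox1 (r = -0.845) and Fth1 (r = -0.821), and Slc11a2 opposed Slc40a1 (r = -0.877), Slc11a1 (r = -0.824) and Steap4 (r = -0.806). These values describe 7 shared libraries. Among 6732 other named genes whose log2 CPM averaged at least 4, the patterns most like those of the ferritin chains over the 7 libraries were Plin2 (r = 0.998), Maff (0.997) and Cdc42ep2 (0.996) for Ftl1 and Laptm5 (0.994), Nfkb2 (0.99) and Sphk2 (0.99) for Fth1. For Slc40a1 they were Trim30b (r = 0.995), Pilra (0.992) and Csf3r (0.991), and for Steap4 Rnf11 (r = 0.99), Lpp (0.989) and St3gal6 (0.989). For Slc11a1 they were Tmcc1 (r = 0.982), Retnlg (0.979) and Lipe (0.978), of which Retnlg, like Csf3r above, is in the neutrophil score, and for Hmox1 Rap2a (r = 0.992), Uso1 (0.98) and Pik3r2 (0.97). For Ncoa4 they were Nras (r = 0.99) and Sgk1 (0.978), and for Tfrc Cdk5rap2 (r = 0.985), Rbbp7 (0.968) and Tmco1 (0.966). For Slc11a2 they were Wdr36 (r = 0.983), Lgals1 (0.975) and Nbdy (0.974), and for Steap3 Pdik1l (r = 0.965), Glo1 (0.961) and Cdc23 (0.956).

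The wider iron and haem pathway was described with 8 lists of 95 further genes, of which 71 passed the filter. edgeR called 0 of the 71 in either direction, beside 0% of all genes tested, with 41 higher and 30 lower in knockout by sign and a median log2 fold change of 0.041. DESeq2 and limma-voom also called 0. With 1 library left out, the list medians given below changed sign for 6 of the 8 lists, the exceptions being mitochondrial iron, at -0.21 to 0, and the neutrophil list. Of the 71, 2 had an edgeR unadjusted p under 0.05, beside 154 of the 12506 genes tested (1.23%). The same 2 had groups that did not overlap, beside 3.13% of all genes tested.

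Those 2 were Timd2 and Lyrm4. Timd2, which encodes a receptor for heavy-chain ferritin in mouse, stood at 195, 162 and 380.0 CPM in knockouts 1 to 3, against 111, 153, 121 and 152 CPM in wild types 1 to 4 (log2 fold change 0.87 ± 0.34, SE, edgeR unadjusted p = 0.0277). All knockouts lay above all wild types, knockout 2 only just. Lyrm4, a helper of the desulfurase that starts iron-sulfur cluster assembly, stood at 15.8, 20.5 and 22.6 CPM in knockout, against 5.38, 4.86, 13.1 and 10.9 CPM in wild type (log2 fold change 1.2 ± 0.47, SE, edgeR unadjusted p = 0.0312). For both, the edgeR adjusted p was 0.99995, so neither passed.

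Of 14 iron uptake genes, 4 were tested, and all 4 were higher in knockout by sign (median log2 fold change 0.464, or -0.11 without knockout 1). Besides Timd2 they included Hfe, a partner of the transferrin receptor, with 18.1, 2.14 and 0.779 CPM in knockout and 1.72 to 7.41 CPM in wild type, and Trf, transferrin, with 3.70 to 20.8 CPM in knockout and 6.42 to 16.9 CPM in wild type. Of 14 genes of iron chaperones and release, 4 were tested, 2 higher and 2 lower by sign (median -0.043). The chaperones that hand iron to ferritin, Pcbp2 and Pcbp1, had log2 fold changes of -0.36 ± 0.30 and -0.14 ± 0.44 (SE), and Pcbp4 had 0.57 ± 0.54. The iron hormone gene Hamp, Bmp6, Tmprss6, Hephl1 and the mitochondrial ferritin gene Ftmt had 0 counts in all 7 libraries.

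Of 10 regulators of iron genes, 9 were tested, 4 higher and 5 lower by sign (median -0.098). Aco1, whose protein becomes iron regulatory protein 1 when it loses its iron-sulfur cluster, stood at 2.92 to 13.2 CPM in knockout and 5.56 to 23.6 CPM in wild type, with a log2 fold change of -0.83 ± 0.68 (SE). Keap1, which marks NRF2 for destruction, had 0.18 ± 0.24, and Zfp36, an mRNA decay factor, -0.43 ± 0.80. Chosen after its values were seen, Fbxl5, the iron-sensing ligase subunit that removes iron regulatory proteins, was 486, 442 and 43.2 CPM in knockouts 1 to 3, against 528, 76.3, 228 and 204 CPM in wild types 1 to 4. Fbxl5 thus varied over 10-fold with the neutrophil score (r = 0.993, a description). It was not alone in this, as 6 of the 9 regulators tested had r above 0.8, beside 14.9% of all genes tested.

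All 12 genes of lysosomal acidification and ferritin turnover were tested, 9 higher and 3 lower by sign (median 0.072), and 7 of 12 had r above 0.8 with the neutrophil score. Becn1 of the autophagy start complex had a log2 fold change of 0.25 ± 0.29 (SE), the proton pump subunit Atp6v0a1 -0.35 ± 0.73 and the autophagy receptor Tax1bp1 0.18 ± 0.46. Of 14 genes of haem breakdown and transport, 11 were tested, 7 higher and 4 lower by sign (median 0.099). The haem chaperone gene Pgrmc1 had -0.57 ± 0.44 (SE). Cd163, the scavenger receptor for haemoglobin on macrophages, had 14.97 CPM in knockout 1, 0 in knockout 2 and 3.31 CPM in knockout 3, against 1.32 to 4.23 CPM in wild type. Lrp1, which takes up haemopexin with haem, had 91.2, 45.0 and 6.82 CPM in knockouts 1 to 3, against 11.9 to 40.3 CPM in wild type.

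All 12 haem synthesis genes were tested, 4 higher and 8 lower by sign (median -0.086). Ppox and Cpox, enzymes of the last mitochondrial steps, had log2 fold changes of -0.88 ± 0.55 and -0.94 ± 0.59 (SE), and Alas2 0.51 ± 1.24. All 15 genes of mitochondrial iron and iron-sulfur clusters were tested, 7 higher and 8 lower by sign (median -0.09), with Slc25a28, a mitochondrial iron carrier, at -0.70 ± 0.39 and the scaffold Iscu at -0.61 ± 0.35. None of the 15 had r above 0.8 with the neutrophil score and 1 had r below -0.8.

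All 5 genes of the neutrophil list of iron-holding and granule proteins were tested and were higher in knockout by sign (median 0.578, running from 0.13 without knockout 2 to 1.74 without wild type 1), and all 5 had r above 0.8 with the neutrophil score. Ltf, lactoferrin, which binds free iron, stood at 222, 299.9 and 4.67 CPM in knockouts 1 to 3, against 280.0, 11.7, 17.5 and 23.0 CPM in wild types 1 to 4. Lcn2, lipocalin 2, which binds bacterial iron carriers, stood at 271, 261 and 30.8 CPM in knockout, against 340.0, 25.8, 78.5 and 59.3 CPM in wild type. Ngp, a granule protein, stood at 269, 322.5 and 8.96 CPM in knockout, against 387, 22.7, 51.4 and 47.9 CPM in wild type. Knockouts 1 and 2 and wild type 1 were the high libraries for all 3 genes. Their log2 fold changes were 1.08 ± 1.33, 0.58 ± 0.92 and 0.65 ± 1.16 (SE).

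**Figure D5:**
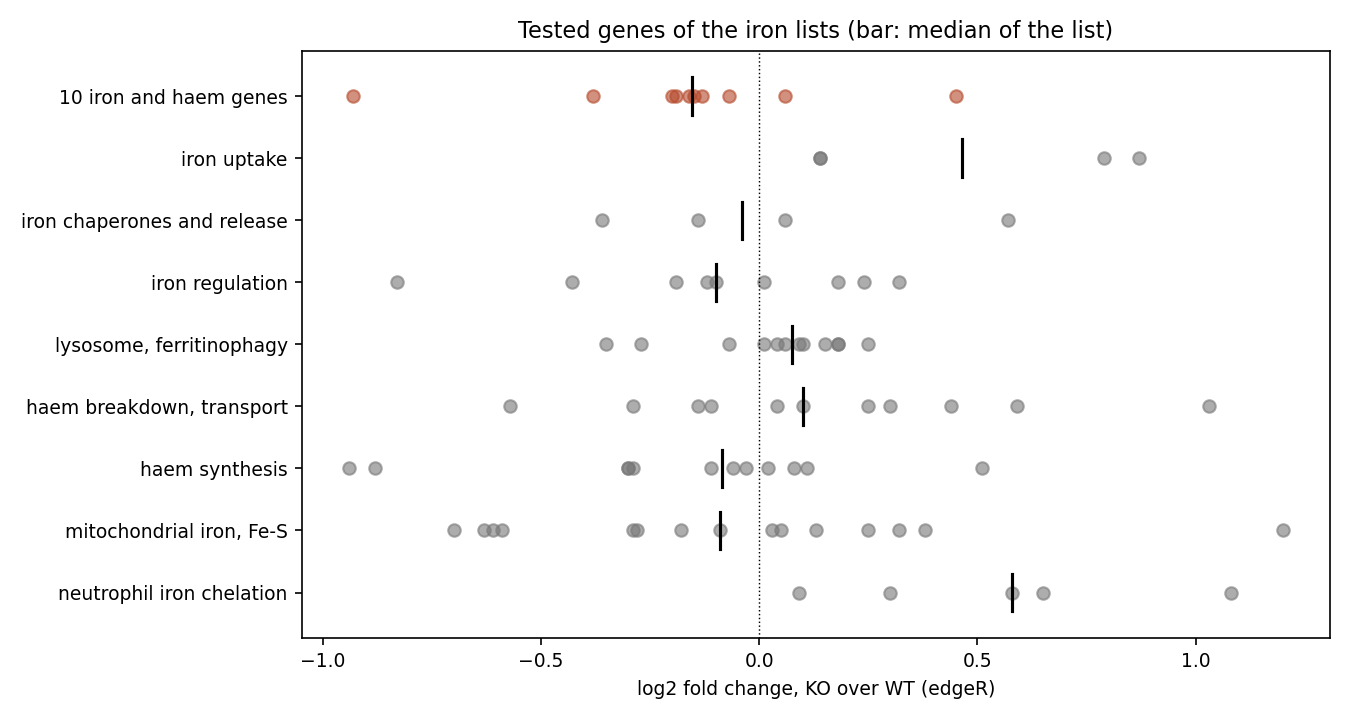
Log2 fold change of knockout over wild type (edgeR) for the 10 iron and haem genes (top, red) and the tested genes of 8 further lists (grey), with a bar at each median. Medians run from -0.154 for the 10 genes to 0.578 for the neutrophil list, and no gene shown passed the test.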

How the data were processed

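Per the labels' protocols, the 7 libraries were made with QuantSeq, a method that sequences the 3′ ends of transcripts. The authors deposited 1 table of whole-number counts per Ensembl gene. The mm10 build, DESeq2 and RSEM 1.2.3 are named in the submitters' processing notes with no role given, so the counts may be rounded estimates. Not given in the sources used here were the annotation release, the strand setting and how multiply matching reads were counted. GRCm38, the build of GENCODE M21, is the same as mm10. Of 51789 genes, 51596 matched a symbol.

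Knockout was compared with wild type on the whole table with edgeR 4.0.16 in R 4.3.3 (filterByExpr, TMM, robust quasi-likelihood F test, Benjamini-Hochberg adjustment, call at an adjusted p under 0.05). Log2 CPM carries a prior count of 2. Ratios were tested over all 35 splits and correlations over all 5040 orders of the libraries with SciPy 1.17.1. Poisson, Wilson and count-ratio intervals cover counting error only, since no molecular identifiers are named; those of fold changes rest on the spread between libraries. In simulated data with known changes, the fit called 4.67% of 2-fold, 38.0% of 4-fold, 84.0% of 8-fold and 98.7% of 16-fold changes. Most changes of 2-fold or 4-fold were thus missed. No library pair agreed within sampling noise.

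The 10 genes, the lists and the tests were chosen with earlier results of these data known. Named were the 10 genes, the 3 genes per list with the smallest unadjusted p and any called, the 3 genes most like each of the 10, and ferritin pseudogene rows with at least 10 counts; some genes that this rule or a marker list holds are not reported here. Alternatives were DESeq2 1.42.0, limma-voom (limma 3.58.1), RLE and upper-quartile factors, no filter, 5 CPM in 3 libraries, a block for the replicate number, a covariate for the description stem or the neutrophil score, each library left out in turn, adding ferritin pseudogene counts, another count offset, and S100a8 and S100a9 as the score. Leaving out wild type 2 and knockout 3 together was chosen after seeing the data.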

Additional observations from a re-analysis of the deposited data

How the results depend on the processing

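The count of 0 called among the 10 genes and among the 71 list genes held in every alternative fit run. Over all genes it held except with DESeq2, which called 1, a pseudogene outside the lists. No sign was called, and Steap3 alone kept its sign in every alternative run; for the other 9 the cause was not tested. With the description stem as a covariate, knockout 1 alone is in effect set against wild type, since the stem of knockouts 2 and 3 holds no wild type. In that fit the log2 fold change was 0.57 for Fth1, 0.29 for Ftl1, 0.81 for Ncoa4, 0.58 for Slc40a1, 0.66 for Hmox1, 0.56 for Steap4 and -0.66 for Slc11a2. With the neutrophil score as a covariate it was 0.00041 for Fth1, 0.059 for Ftl1 and -0.20 for Slc11a2. Steap4 and Slc40a1 moved farthest in that fit, from -0.38 to -1.25 and from -0.15 to -0.68, and neither was called. With limma-voom the log2 fold change was 0.088 for Fth1, 0.21 for Ftl1 and -0.63 for Slc11a2. With wild type 2 and knockout 3 both left out it was 0.0068 for Tfrc, 0.0067 for Ncoa4, 0.055 for Slc40a1 and -0.65 for Slc11a2. Knockout and wild-type replicates share numbers, but the labels state no pairing. Same-numbered libraries did not all deviate together (r of 0.349, -0.225 and -0.184), which cannot show whether they were paired. With the replicate block, Ftl1 was 0.059 and Slc11a2 -0.046, and the count called stayed at 0.

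Leaving out 1 library gave -0.42 to 0.027 for Tfrc, -0.73 to 0.31 for Fth1, -0.31 to 0.25 for Ftl1, -1.03 to 0.18 for Ncoa4, -0.74 to 0.36 for Slc40a1, -0.97 to 0.20 for Hmox1, -0.091 to 0.85 for Slc11a1, -0.99 to 0.43 for Slc11a2 and -1.27 to 0.16 for Steap4. The ratio differences ran from -0.34 to 0.038 for Fth1 to Ftl1, -0.21 to 1.91 for Slc11a1 to Slc11a2 and -2.89 to 1.81 for Steap4 to Steap3. Between 5 and 8 genes went with the neutrophil score, and 0 with both wild type 2 and knockout 3 left out. Depth limits Steap3, with 6 to 53 counts a library, and Steap4 in knockout 3, with 2 counts.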
